A study of Mus musculus with 6 samples.

Results

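The genes described here encode cytokines of the interleukin-1 (IL-1) family and 1 of their receptors: 7 agonists (*Il1a*, *Il1b*, *Il1f6*, *Il1f8*, *Il1f9*, *Il18* and *Il33*), 2 antagonists (*Il1rn* and *Il1f5*) and the receptor gene *Il1rl2*. They were taken from the family by name, each through its brightest probe set naming a single gene (mean of 6 arrays), and all 10 were found among 19938 genes measured. The family was chosen by its mutant-minus-control differences on these arrays, seen beforehand, and its members by name, so those differences are given as a description and not as evidence. The esophageal epithelium of 6 mice, each 3 months old and of mixed genetic background, was profiled on microarrays, 1 array per animal. The 3 mutants (ED-L2-Cre/Klf4loxp/loxp) carried the floxed transcription factor gene *Klf4* and a Cre transgene under the ED-L2 promoter, which is active in squamous epithelium of the upper digestive tract. The 3 controls (Klf4loxp/loxp) were littermates of matched sex with the same floxed gene and without Cre, so no group carried Cre without the floxed gene. Each group held 1 male and 2 females.

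IL-1 family cytokines are made by barrier epithelia and by white blood cells and act through paired receptor chains that recruit the adaptor MyD88 and activate NF-kB and MAP kinases. IL-1 alpha (*Il1a*) and IL-1 beta (*Il1b*) signal through the IL-1 receptor, and the IL-1 receptor antagonist (*Il1rn*) occupies that receptor without signalling. IL-36 alpha, beta and gamma (*Il1f6*, *Il1f8* and *Il1f9*, also named *Il36a*, *Il36b* and *Il36g*) signal through the receptor encoded by *Il1rl2*, and the IL-36 receptor antagonist (*Il1f5*, also named *Il36rn*) blocks it. IL-18 and IL-33 have receptors of their own. IL-1 beta and IL-18 are made as precursors that are cut by caspase-1. In stratified epithelia several of these proteins are stored in keratinocytes and released on injury.

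Array medians lay between 5.01 and 5.13 on the log2 scale, and correlations between arrays across genes lay between 0.974 and 0.992. The *Klf4* probe set did not read lower in mutants (9.99 ± 0.21 in controls and 10.35 ± 0.13 in mutants, SD, n = 3 each; limma adjusted p = 0.314). Neither the part of the gene removed by Cre nor the position of its probes was known here, so this signal does not check the labels, and each direction below rests on them. All 15 markers of squamous epithelium lay above the dim limit, the 40th percentile of gene means at 4.72 on the log2 scale, and their mean level was 11.51 to 11.58 on control arrays and 11.63 to 11.74 on mutant arrays. Of those 15 genes, 8 were higher and 7 lower in mutants, 0 past the threshold. All 20 measured fibroblast markers were also above that limit and lower in mutants, with a median difference of -0.87 and 3 past the threshold. Their mean level was 7.59 to 8.33 on control arrays and 7.0 to 7.18 on mutant arrays, and that of 16 muscle markers, all lower in mutants with a median of -0.80 and 0 past the threshold, 7.05 to 9.45 and 6.59 to 8.15. In such bulk samples fewer cells of a type and less RNA per cell cannot be told apart. The part of stromal RNA in the differences below was not tested.

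The family was not shifted as a block. *Il1f5*, *Il1f6* and *Il18* were lower in mutants, *Il1rn* was higher, and *Il1f9*, *Il1b* and *Il33* had overlapping groups. Past an adjusted p of 0.05 in limma, fitted over all genes, were 4 of the 10 genes, 3 lower and 1 higher. The same fit called 1.04% of all genes, 0.672% lower and 0.366% higher. Groups did not overlap for 7 of the 10 genes, and for 18.1% of all genes. The median difference, mutant minus control, was -0.48 on the log2 scale over these genes and 0.022 over all genes. Since the genes were chosen with this contrast known, nothing is read from these counts. The calls depended on single arrays. Without control 3 or without mutant 3, limma called 0 of the 10 genes, and 44 and 102 genes in the whole table. *Il1f5* and *Il1rn* passed without control 1, *Il1a*, *Il1rn* and *Il18* without control 2, *Il1f5* and *Il1f6* without mutant 1, and *Il1f5*, *Il1f6* and *Il1rn* without mutant 2.

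**Figure D1:**
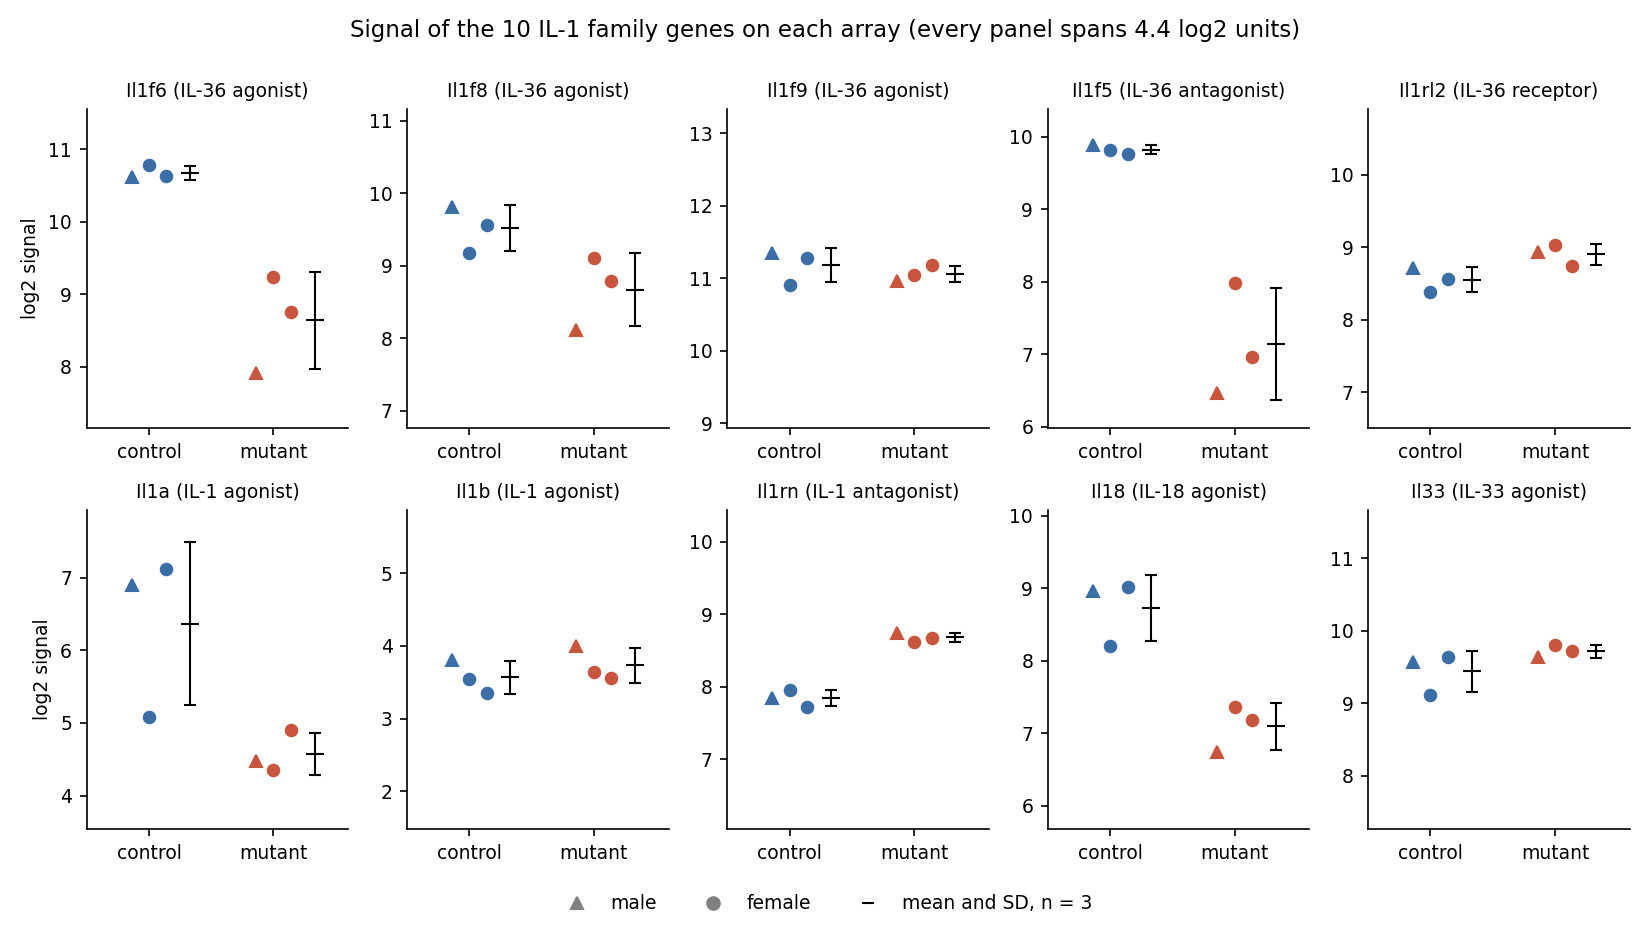
Log2 signal of each of the 10 genes on the 3 control and 3 mutant arrays, with males as triangles, females as circles and the mean with its SD beside each group. *Il1f5*, *Il1f6* and *Il18* show separate groups with mutants low, *Il1rn* shows separate groups with mutants high, and *Il1f9*, *Il1b* and *Il33* overlap.

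On the IL-36 axis the antagonist gene had the largest difference of the 5 genes. *Il1f5* (probe set 10469801), the gene of the IL-36 receptor antagonist, read 9.89, 9.81 and 9.76 on the control arrays and 6.47, 7.98 and 6.97 on the mutant arrays. Every mutant array lay well below the closely spaced controls, and the mutants were spread over more than a log2 unit. The mean was 9.82 ± 0.06 in controls and 7.14 ± 0.77 in mutants (SD, n = 3 each), a level 6.42-fold lower in mutants with a difference of -2.68 ± 0.34 (SE, log2) and a 95% interval of -3.46 to -1.90. Left out in turn, single arrays gave differences between -3.11 and -2.35.

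*Il1f6* (probe set 10469793), which encodes the agonist IL-36 alpha, had the second largest difference of the family. It read 10.61, 10.79 and 10.63 in controls and 7.92, 9.24 and 8.76 in mutants. The groups did not overlap, and as for *Il1f5* the male mutant was lowest and mutant 2 highest. Controls averaged 10.68 ± 0.10 and mutants 8.64 ± 0.67 (SD, n = 3 each), a 4.10-fold lower level in mutants and a difference of -2.04 ± 0.30 (SE, log2). *Il1f8* (probe set 10469774), the IL-36 beta gene, read 9.81, 9.18 and 9.57 in controls and 8.12, 9.11 and 8.80 in mutants. Its groups were separated by the small gap between control 2 and mutant 2, and its difference of -0.84 ± 0.26 (SE, log2) was not past the threshold of the fit. The male pair differed by -1.69 and the females by -0.42.

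The third agonist gene and the receptor gene did not share this decrease. *Il1f9* (probe set 10469786), which encodes IL-36 gamma, read 11.35, 10.91 and 11.28 in controls and 10.96, 11.04 and 11.18 in mutants. The groups overlapped, and the difference of -0.12 ± 0.14 (SE, log2) had a 95% interval of -0.44 to 0.20. In the females alone the difference was 0.015, so the gene had no settled direction. *Il1rl2* (probe set 10345777), the receptor gene of the axis, read 8.72, 8.38 and 8.57 in controls and 8.94, 9.03 and 8.75 in mutants. Every mutant lay above every control by a small margin, with a difference of 0.35 ± 0.13 (SE, log2) that was not past the threshold.

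The spread between animals was itself uneven among these genes. The SD of the mutants was 12.1 times that of the controls for *Il1f5* and 6.85 times for *Il1f6*, against a median ratio of 1.17 over all genes. The limma fit uses a single variance for both groups, moderated across genes. Without moderation the SE was 0.45 for *Il1f5* and 0.39 for *Il1f6*, against 0.34 and 0.30 with it. The interval given above for *Il1f5* is thus narrower than its own arrays alone would give. With 3 animals a group an SD is itself imprecise, and the ratios were not tested. For *Il1a*, *Il33* and *Il1f9* the ratio ran the other way, at 0.26, 0.31 and 0.47. Among the mutants, 6 of the 10 genes were lowest on mutant 1, the male (*Il1f6*, *Il1f8*, *Il1f9*, *Il1f5*, *Il18* and *Il33*), where 36.9% of all genes were lowest. Among the controls, 6 of the 10 were lowest on control 2 (*Il1f8*, *Il1f9*, *Il1rl2*, *Il1a*, *Il18* and *Il33*), where 37.5% of all genes were lowest. These genes were measured on the same arrays and are not independent.

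On the IL-1 axis the antagonist gene was higher in mutants and *Il1a* was lower. *Il1rn* (probe set 10469816), the gene of the IL-1 receptor antagonist, read 7.85, 7.96 and 7.73 in controls and 8.75, 8.62 and 8.68 in mutants. Both groups were tight and clearly apart. The means were 7.85 ± 0.12 and 8.68 ± 0.06 (SD, n = 3 each), a 1.79-fold higher level and a difference of 0.84 ± 0.10 (SE, log2), with a 95% interval of 0.60 to 1.07. Left out in turn, single arrays gave differences between 0.78 and 0.89.

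*Il1a* (probe set 10487588), which encodes IL-1 alpha, read 6.91, 5.09 and 7.12 in controls and 4.48, 4.35 and 4.90 in mutants. Control 2 lay near the mutants, and the groups were separated by the gap between 5.09 and 4.90. The difference was -1.80 ± 0.49 (SE, log2), not past the threshold with all arrays. Without control 2 it was -2.44 ± 0.18 and passed (limma adjusted p = 0.00646), while in the other alternatives the adjusted p lay between 0.06 and 0.488. With a mutant mean of 4.58, under the dim limit, the difference is uncertain in size. *Il1b* (probe set 10487597), which encodes IL-1 beta, read 3.81, 3.55 and 3.34 in controls and 4.0, 3.64 and 3.55 in mutants. All of these values lie under the dim limit, the groups overlapped, and the difference was 0.17 ± 0.16 (SE, log2). IL-1 beta is made chiefly by myeloid cells. Of 12 measured neutrophil markers 3 and of 12 lymphocyte markers 3 were above the dim limit, and their mean levels were 4.10 to 4.25 and 3.75 to 4.0 on control arrays against 4.31 to 5.15 and 3.84 to 3.96 on mutant arrays. Of 16 markers of macrophages, dendritic and Langerhans cells, 12 were above that limit, with mean levels of 6.02 to 6.34 and 5.92 to 6.55. In mutants 8 of these 16 were higher and 8 lower, with a median difference of -0.02 and 1 past the threshold in each direction. *Cd68* rose by 1.11 ± 0.17 while *Lyz2* fell by 1.57 ± 0.27 (SE, log2, limma adjusted p = 0.0304 and 0.0463). Of 9 mast cell markers 1 was above the dim limit. Among the markers under it were *Ly6g*, *Csf3r* and *Mpo* of neutrophils, *Cd3d* and *Ms4a1* of lymphocytes and *Kit* of mast cells. Those above the limit were *Cxcr2*, *S100a8* and *S100a9* of neutrophils, *Ptprc*, *Cd3e* and *Cd8a* of lymphocytes and *Tpsb2* of mast cells. Of the 12 neutrophil markers, 10 were higher and 2 lower in mutants, 0 past the threshold. Their median difference was 0.13 and the largest, that of *S100a8*, was 2.52. *S100a8* and *S100a9* are also on the list of genes induced by IL-1 or IL-36 in epithelium. The part of neutrophils in these values was not tested.

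The remaining agonists are the alarmin-like cytokines IL-18 and IL-33. *Il18* (probe set 10585194) read 8.96, 8.20 and 9.02 in controls and 6.74, 7.37 and 7.18 in mutants. Control 2 was the lowest control but stayed above every mutant. Controls averaged 8.73 ± 0.45 and mutants 7.09 ± 0.32 (SD, n = 3 each), a 3.10-fold lower level in mutants with a difference of -1.63 ± 0.25 (SE, log2). It was past the threshold in 8 of the 17 alternatives tried, and in the females alone the difference was -1.34. *Il33* (probe set 10462442), whose product is held in the nucleus and released on damage, read 9.57, 9.12 and 9.63 in controls and 9.63, 9.81 and 9.71 in mutants. The groups overlapped, and the difference of 0.28 ± 0.15 (SE, log2) had a 95% interval of -0.07 to 0.62. Endothelial cells are another known source of IL-33, and their 14 markers, 11 of them above the dim limit, had a mean level of 5.42 to 5.66 on control and 5.34 to 5.49 on mutant arrays. Of these 14, 7 were higher and 7 lower in mutants, with a median difference of -0.0025. The 1 past the threshold was *Flt1*, the gene of a receptor for vascular endothelial growth factor. It fell by 1.90 ± 0.19 (SE, log2, limma adjusted p = 0.00982). The part of these cells in the difference was not tested.

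**Figure D2:**
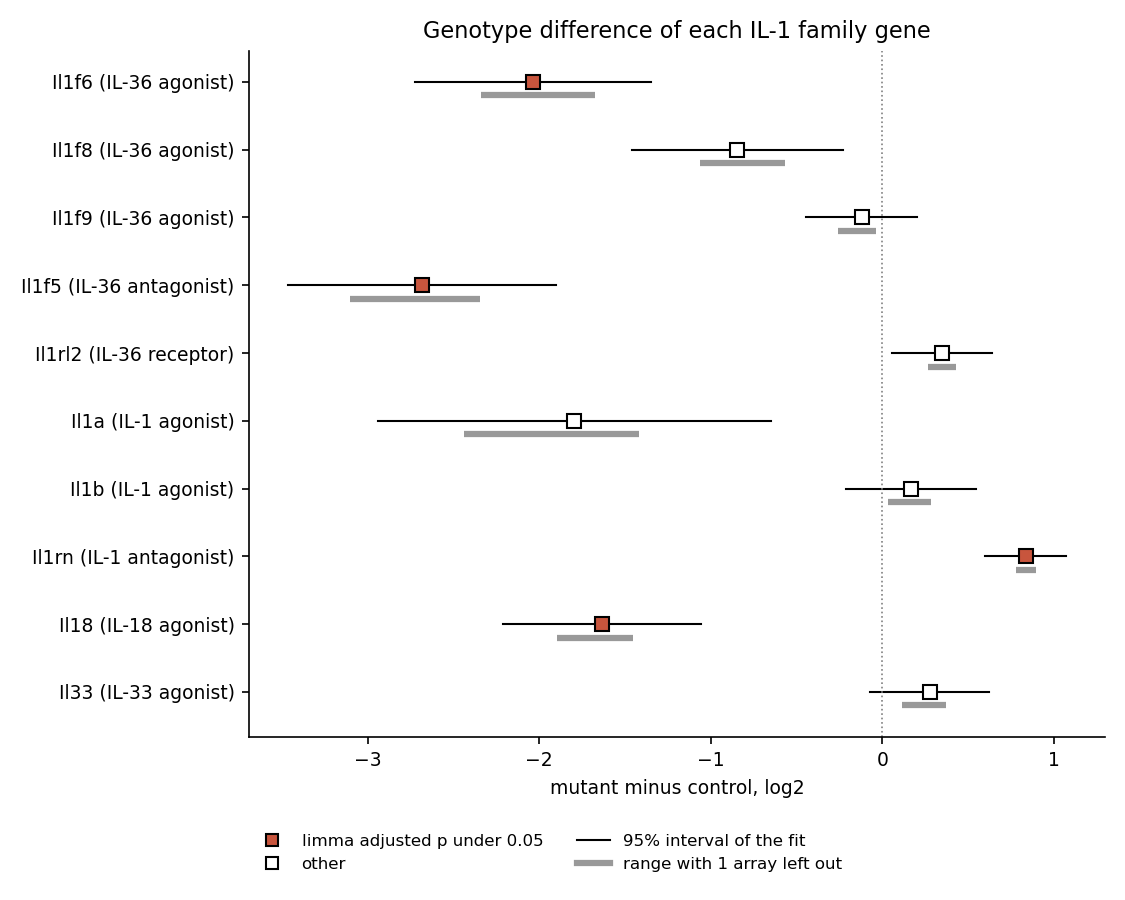
Difference between genotypes (mutant minus control, log2) for each gene, with the 95% interval of the limma fit as a thin line and the range of differences with 1 array left out as a grey bar. Filled squares mark the 4 genes past an adjusted p of 0.05, from *Il1f5* at -2.68 to *Il1rn* at 0.84.

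Agonists were also set against their antagonist within each array. The log2 difference between probe sets of different genes is not a ratio of amounts, and only its change between genotypes is used. For IL-1, the mean of *Il1a* and *Il1b* minus *Il1rn* was -2.49, -3.64 and -2.50 in controls and -4.51, -4.63 and -4.45 in mutants. Every mutant lay below every control, and the change was -1.65 ± 0.39 (SE, log2). *Il1b* lay under the dim limit on all 6 arrays and *Il1a* had a mutant mean under it, so this change is uncertain in size. For IL-36, the mean of *Il1f6*, *Il1f8* and *Il1f9* minus *Il1f5* was 0.70, 0.48 and 0.73 in controls and 2.53, 1.82 and 2.61 in mutants. Here every mutant lay above every control, and the change was 1.68 ± 0.26 (SE, log2). Both changes follow from the values that chose the genes and are given without a test. Their SE, and the SE of the pairs below, was computed directly from the 3 arrays of each group. The SE of single genes comes from the limma fit, so the 2 kinds of SE are not alike.

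The 5 single pairs differed in size. *Il1f9* minus *Il1f5* changed by 2.56 ± 0.46, *Il1f8* minus *Il1f5* by 1.84 ± 0.27 and *Il1f6* minus *Il1f5* by 0.65 ± 0.17 (SE, log2). *Il1f6* was thus lower together with its antagonist, while *Il1f9* stayed near its control level. *Il1a* minus *Il1rn* changed by -2.63 ± 0.73 and *Il1b* minus *Il1rn* by -0.67 ± 0.16 (SE, log2), with the same limit on size. The *Il1b* value mostly restates the difference of *Il1rn*, at 0.84 against 0.17 for *Il1b*.

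**Figure D3:**
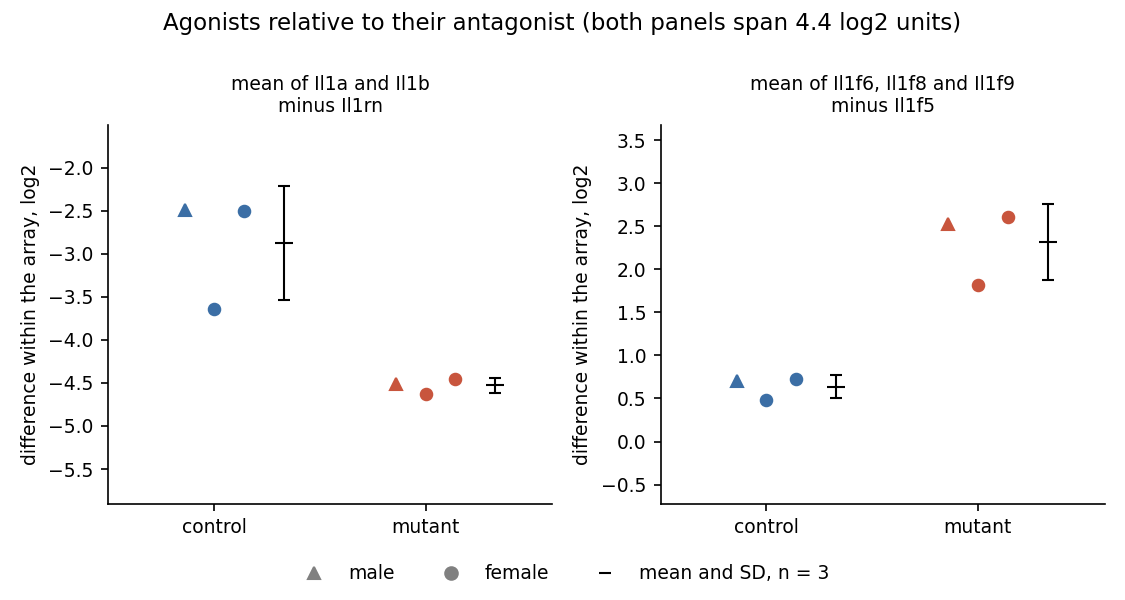
Difference in log2 signal within each array between the mean of the agonist genes and their antagonist gene, for IL-1 on the left and IL-36 on the right, with males as triangles, females as circles and the mean with its SD beside each group. Mutants lie lower than controls on the left (-4.53 against -2.88 on average) and higher on the right (2.32 against 0.64).

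The IL-36 genes and *Il1rn* are neighbours on chromosome 2 in assembly GRCm38.p6, in the order *Il1f8*, *Il1f9*, *Il1f6*, *Il1f5*, *Il1f10* and *Il1rn*. Genes of this cluster differed in both directions: *Il1f6* and *Il1f5* lie side by side and were both lower, *Il1f9* beside them was near its control level, and *Il1rn* was higher. *Il1f10*, which encodes IL-38, lay between the antagonist genes, was under the dim limit and differed by -0.22 ± 0.09 (SE, log2; limma adjusted p = 0.398). The nearest measured genes outside the cluster had differences between -0.26 (*Psd4*) and 0.04 (*Pax8*), none past the threshold. *Il1a* and *Il1b* lie elsewhere on the same chromosome. *Il1rl2* lies on chromosome 1 with measured genes of other receptors of the family, *Il1r2*, *Il18r1* and *Il18rap*.

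**Figure D4:**
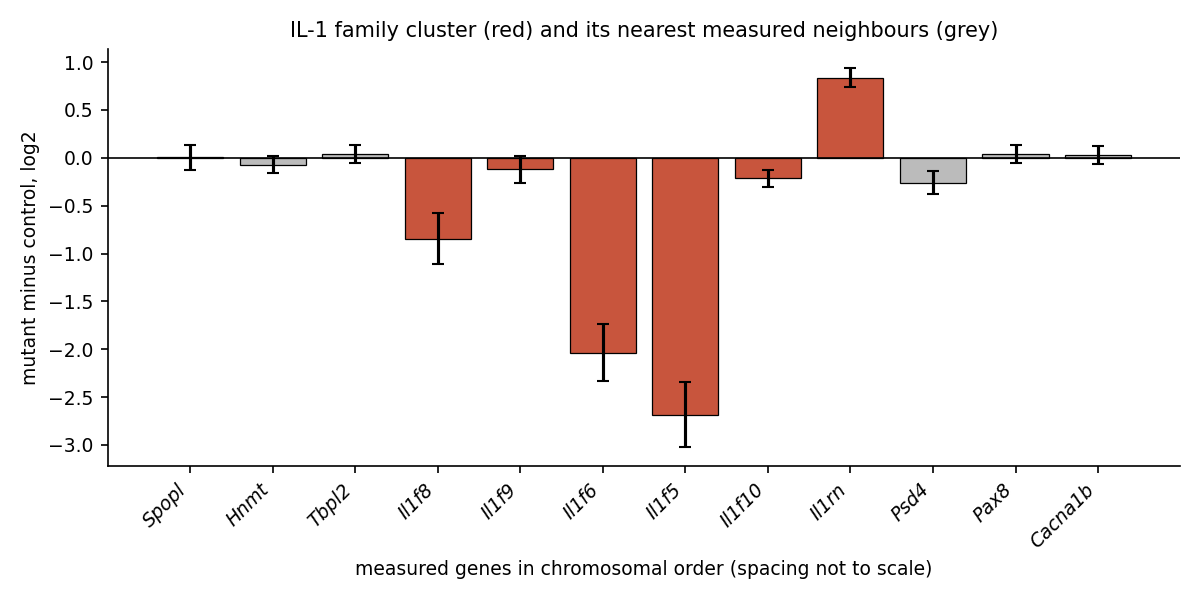
Difference between genotypes (mutant minus control, log2; bars with the SE of the limma fit) for the measured genes of the IL-1 family cluster in red and 3 measured neighbours on each side in grey, in chromosomal order with spacing not to scale. The bars run from -2.68 at *Il1f5* to 0.84 at *Il1rn*, and the neighbours stay between -0.26 and 0.04.

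KLF4 and related Krüppel-like factors bind CACCC-type sequences, so the promoter windows of the genes were searched for CACCC on both strands. RefSeq windows on GRCm38.p6, from 250 bases before to 50 bases after a transcript start, were found for 9 of the 10 genes, 13 windows in all, and none was matched for *Il1f6*. CACCC was present in 7 of these 13 windows and in 57.5% of all 32851 windows of the same length. The first windows of the 3 genes below are shown because their genes were past the threshold, and capitals mark CACCC or its reverse complement GGGTG.
Il1f5, GRCm38.p6 chr2:24276704-24277003, plus strand: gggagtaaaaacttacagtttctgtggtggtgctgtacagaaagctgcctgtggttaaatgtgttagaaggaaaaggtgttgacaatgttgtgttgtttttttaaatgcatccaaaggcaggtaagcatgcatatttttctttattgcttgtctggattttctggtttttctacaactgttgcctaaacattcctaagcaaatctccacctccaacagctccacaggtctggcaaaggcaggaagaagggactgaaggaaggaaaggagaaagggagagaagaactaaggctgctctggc
Il18, GRCm38.p6 chr9:50554450-50554749, plus strand: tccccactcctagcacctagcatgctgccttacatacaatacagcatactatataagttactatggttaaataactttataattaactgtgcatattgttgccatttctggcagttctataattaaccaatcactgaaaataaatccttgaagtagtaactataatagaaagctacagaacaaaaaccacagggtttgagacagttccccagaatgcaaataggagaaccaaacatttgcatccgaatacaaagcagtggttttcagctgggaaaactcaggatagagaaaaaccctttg
Il1rn, GRCm38.p6 chr2:24336610-24336909, plus strand: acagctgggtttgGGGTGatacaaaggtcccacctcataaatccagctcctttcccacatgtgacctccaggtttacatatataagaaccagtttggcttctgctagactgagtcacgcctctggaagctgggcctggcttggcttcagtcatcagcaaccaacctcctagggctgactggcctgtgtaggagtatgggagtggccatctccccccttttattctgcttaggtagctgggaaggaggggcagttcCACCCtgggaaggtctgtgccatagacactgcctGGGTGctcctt
The first of 3 windows of *Il1rn* held 3 matches, 1 on the forward and 2 on the reverse strand, and its other windows held 0. The windows of *Il1f5*, *Il18* and *Il1a* held 0, that of *Il1f8* held 1 and that of *Il1f9* held 2.

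Other short motifs were counted in the same windows on both strands. TATAAA was present in 7 of the 13 windows, against 13.6% of all windows. The AP-1 motif TGANTCA was present in 3, those of *Il1f8*, *Il1a* and *Il1rn*, against 7.81%. The kappaB motif, searched only as GGGRNNYYCC (R is A or G, Y is C or T, N is any base), was present in 0, against 8.46%. Looser forms of it were not searched. Windows of 1 gene can overlap, and a match is a description of letters, not a binding site.

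The receptors, co-receptors and binding proteins of the family gave small differences. Of 9 measured genes on that list, which also holds *Il1f10*, 0 were past the threshold in limma, against 1.04% of all genes. The list's median difference was -0.016, against 0.022 over all genes. The decoy receptor gene *Il1r2* read 9.08, 8.92 and 9.53 in controls and 8.43, 9.05 and 9.09 in mutants, with overlapping groups and a difference of -0.32 ± 0.22 (SE, log2). *Il1rap*, which encodes the accessory chain shared by the IL-1, IL-33 and IL-36 receptors, differed by -0.05 ± 0.13, and *Sigirr*, which encodes an inhibitory receptor, by -0.02 ± 0.12. *Il18r1*, *Il18rap* and *Il18bp*, for the IL-18 receptor chains and the IL-18 binding protein, lay under the dim limit with differences of 0.02 ± 0.10, 0.10 ± 0.12 and -0.04 ± 0.16. *Il1r1* and *Il1rl1* were not analysed here.

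Among adaptors, kinases and NF-kB proteins, 1 of 38 measured genes passed, against 1.04% of all genes. *Traf6*, which encodes the ubiquitin ligase downstream of MyD88, read 9.53, 9.15 and 9.30 in controls and 8.70, 8.65 and 8.52 in mutants. The groups did not overlap and the gene fell by 0.71 ± 0.12 (SE, log2; limma adjusted p = 0.0487). That call was lost with each array centred on its median (adjusted p = 0.103) and whenever any single array was left out, with adjusted p between 0.0544 and 0.191. The list's median difference was -0.04.

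Among inflammasome, caspase, gasdermin and processing protease genes, 1 of 40 passed as higher and 2 as lower, with a list median of 0.01. Of all genes, 0.366% passed as higher and 0.672% as lower. *Ctsc*, the gene of cathepsin C, which activates granule proteases, read 8.76, 8.35 and 8.39 in controls and 9.75, 9.70 and 9.48 in mutants. It rose by 1.14 ± 0.14 (SE, log2; limma adjusted p = 0.0162). *Nlrp10*, which encodes a NOD-like receptor family protein of skin and other epithelia, read 9.68, 9.44 and 9.58 in controls and 6.78, 8.06 and 7.90 in mutants. It fell by 1.99 ± 0.31 (SE, log2; limma adjusted p = 0.034), with the male mutant lowest. *Klk5*, the gene of a kallikrein protease of the cornified layer, read 7.55, 7.25 and 6.99 in controls and 4.18, 5.76 and 4.35 in mutants. It fell by 2.50 ± 0.39 (SE, log2; limma adjusted p = 0.0353), and its mutant arrays reached below the dim limit. Without control 3 none of these 3 genes passed, with adjusted p between 0.0889 and 0.143. *Ctsc* also lost its call without mutant 1 and without mutant 2, *Nlrp10* without any other array but mutant 1, and *Klk5* without any other array but mutant 2.

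Of 50 genes listed as induced by IL-1 or IL-36 in epithelium, 1 passed as higher, against 0.366% of all genes. The other 49 did not pass, and 31 of the 50 lay under the dim limit. *Defb3*, which encodes a beta-defensin, an antimicrobial peptide of epithelia, read 4.20, 5.02 and 5.75 in controls and 10.72, 9.49 and 8.95 in mutants. It rose by 4.73 ± 0.51 (SE, log2; limma adjusted p = 0.0118), and it passed with any single array left out. Since control 1 lay under the dim limit, the rise is uncertain in size. *Defb3* did not pass in 2 of the 17 alternatives, the replicate number as a block (adjusted p = 0.05, just above the threshold) and the fit without moderation (adjusted p = 0.244). The list's median difference was 0.07, with 32 genes higher and 18 lower. Whether these genes respond to the cytokines described here in this tissue was not tested.

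**Figure D5:**
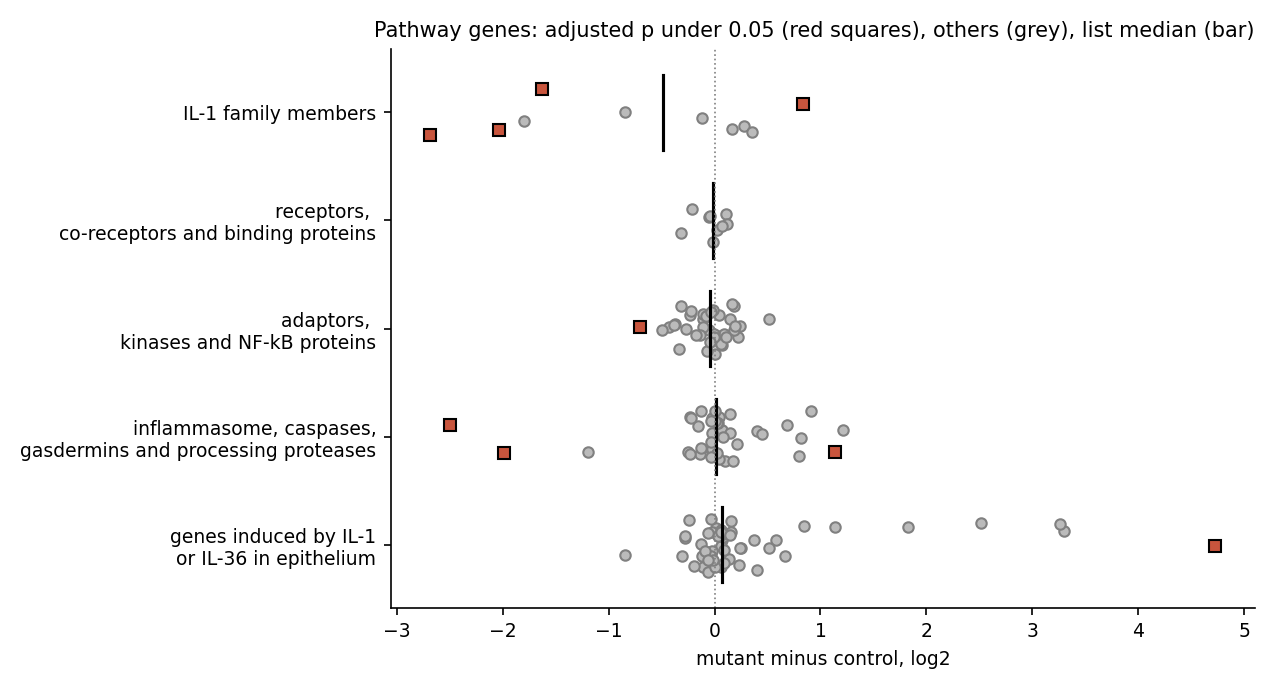
Difference between genotypes (mutant minus control, log2) of each measured gene in the family and in the 4 lists of pathway genes, with genes past a limma adjusted p of 0.05 as red squares, others in grey and the list median as a black bar. The receptor list has no red square and lies between -0.32 and 0.12, and *Defb3* at 4.73 is the farthest point.

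Sex was independent of how the genes were chosen and was tested with genotype as a covariate over 2 male and 4 female arrays. In limma, 0 of the 10 genes passed (smallest adjusted p = 0.904), and 2 had an unadjusted p under 0.05, *Il1b* at -0.38 ± 0.11 and *Il1f6* at 0.59 ± 0.25 (female minus male, SE, log2). Of all genes, 0.01% passed and 5.22% had an unadjusted p under 0.05. The genotype effect itself was then compared between sexes as an interaction, with 1 male per genotype. The effect in males thus has no replicate, and the SE and p of this term cannot cover variation between males. Again 0 of the 10 genes passed (smallest adjusted p = 0.589, against 0.0451% of all genes called), and 2 had an unadjusted p under 0.05. These were *Il1f8* and *Il1f6*, whose differences were less negative in females by 1.27 ± 0.33 and 0.98 ± 0.33 (SE, log2). Of all genes, 5.82% had an unadjusted p under 0.05 for this term.

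The genes whose pattern over the 6 arrays was most like that of 4 family members were listed by Pearson correlation among 11962 other genes above the dim limit. For *Il1f5* they were *Trp53inp2*, *Gjb5*, *Ypel2*, *Nrd1* and *Fcho1*, with r between 0.993 and 0.9996. For *Il1f6* they were *Bzw2*, *Atp6v1c2*, *Fgfr2*, *Dnase1l2* and *Sema3e*, with r between 0.991 and 0.996. For *Il18* they were *Rusc2*, *Calcoco1*, *Egln3*, *Lce1a2* and *Lamb3*, with r between 0.994 and 0.997. For *Il1rn* they were *Rest*, *Map3k11*, *Mbd2*, *Efcab5* and *Rprd2*, with r between 0.992 and 0.998. Over 6 arrays such values are common: 144, 125, 186 and 85 genes had an r of at least 0.95 with *Il1f5*, *Il1f6*, *Il18* and *Il1rn*, and the points share the genotype difference. The genes listed differed widely in size of change, from -0.09 for *Fgfr2* to -1.81 for *Dnase1l2* among those like *Il1f6* (mutant minus control, log2).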

How the data were processed

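From each mouse, 100 ng of total RNA of esophageal epithelium gave biotin-labelled cRNA after 1 round of amplification from a poly(T) primer, per the labels' protocols. The authors deposited log2 values for 28853 probe sets on 6 arrays, made with Partek 6.4, per the submitters' processing notes. How background was corrected and values were normalized and summarized is not given in the sources used here; these steps can compress differences of dim or very bright genes. That the scale is log2 was inferred from the range of the values, with array maxima of 13.99 to 14.67. Precision is limited by the number of arrays.

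Gene names come from the platform annotation, updated to GRCm38.p6 by Entrez identifier (21698 matched, 91 kept as annotated). A single gene was named by 21789 probe sets and several genes by 1621, and 5443 had no name here. limma 3.58.1 (R 4.3.3) was run over 19938 genes with genotype as its one term, two-sided, with moderated variances and 7.58 total degrees of freedom. P-values were adjusted by Benjamini-Hochberg across the whole table, and 0.05 was the threshold. Intervals of 95% use the moderated SE. No exact permutation test was run, since 3 arrays against 3 allow no p under 0.1. Of 275 list entries, 261 were matched. The steps were tested on simulated data for the comparison of mutant against control over 19938 genes. Changes of 0.5, 1, 2 and 3 (log2) were recovered in 22%, 94%, 98% and 100% of 50 genes each, with 13 false among 170 calls. These rates hold for the simulated data and do not give the share of real changes that would be called. Of the real genes, *Il1a* at -1.80 ± 0.49 (SE, log2) did not pass, so a gene not called is not thereby unchanged. Annotation used Python 3.11.15, and plots matplotlib 3.10.9.

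The members, gene lists and naming rule were chosen with earlier results of these data known. The rule names *Klf4*, all members, the receptor genes, up to 6 genes past the threshold from each list of pathway genes or the 2 with the smallest p where none passes, and the 5 genes most like each of *Il1f5*, *Il1f6*, *Il18* and *Il1rn*. Other genes were named after their values were seen. Same-numbered animals share a number and a sex, and their deviations from the group means correlated at -0.166, 0.09 and -0.1 for replicates 1, 2 and 3. With 3 arrays a group these values cannot exclude pairs. The numbers were not taken as pairs in the main fit. With the number as a block, *Il1rn* and *Il18* did not pass (limma adjusted p = 0.0616 and 0.0863).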

Additional observations from a re-analysis of the deposited data

How the results depend on the processing

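In all, 17 alternatives were tried. The differences of *Il1f5*, *Il1f6*, *Il1f8*, *Il1rl2*, *Il1a*, *Il1b*, *Il1rn*, *Il18* and *Il33* kept their direction in each alternative that could be run, and that of *Il1f9* turned to 0.015 in the females alone. *Il1b* has no value with dim genes left out. *Il1f5* and *Il1f6* passed in 12 of the 17, *Il1rn* in 11 and *Il18* in 8. Genes called in the whole table, 207 with all arrays, numbered 81 with the replicate number as a block (replicate block), 370 with array weights, 7 without moderation and 83 in the females alone, and between 44 (without control 3) and 193 (without control 1) with single arrays left out, where control 2 gave 106, mutants 1 and 2 each 93 and mutant 3 gave 102.

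Family members called lower numbered 2 with the replicate block, 2 with sex as a covariate, 0 without moderation, 1 in the females alone and 0 to 2 with single arrays left out. Those called higher numbered 0 with the replicate block, without moderation and in the females alone, and 0 to 1 with single arrays left out. Called adaptor, kinase and NF-kB genes numbered 0 with median centring, with probe sets naming several genes, with the replicate block, without moderation, in the females alone and with each array left out, and 2 with array weights. Called processing genes numbered 1 with the replicate block, 0 without moderation, and 0 to 2 with single arrays left out. Called target genes numbered 0 with the replicate block and without moderation, 2 with sex as a covariate and in the females alone, and 1 to 2 with single arrays left out. The cause of these changes was not tested, other than that fewer samples entered where arrays were left out.

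The agonist changes moved by less than the spread between replicates, from -2.03 to -1.46 for IL-1 and from 1.54 to 1.93 for IL-36. Reversals among receptor genes were small: *Il18r1* -0.014 and *Sigirr* 0.0092 with quantile normalization, *Sigirr* 0.0058 with median centring, and *Il1rap* 0.019 and *Il18rap* -0.00198 in the females alone. With single arrays left out, *Il1rap* ranged from -0.17 to 0.013, *Sigirr* from -0.12 to 0.066, *Il18bp* from -0.18 to 0.086 and *Il18r1* from -0.028 to 0.073. The number of arrays, 3 a group, limits how small a difference could be resolved, and *Il18r1*, *Il18rap* and *Il18bp* also lay under the dim limit. No array correlated best with the array of its own number.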

Other observations

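Several pathway genes had groups that did not overlap without passing the threshold. They were named after their values were seen. With called genes counted, groups did not overlap for 1 of 9 receptor-list, 11 of 38 adaptor, 13 of 40 processing and 12 of 50 target genes. Such groups were seen for 18.1% of all genes. *Casp1*, the gene of the protease that cuts the IL-1 beta and IL-18 precursors, read 8.19, 7.68 and 7.93 in controls and 8.59, 9.11 and 8.53 in mutants, a difference of 0.81 ± 0.19 (SE, log2; limma adjusted p = 0.117). *Casp4*, the gene of a caspase of the noncanonical inflammasome, differed by 0.80 ± 0.19 (adjusted p = 0.125), and the gasdermin gene *Gsdmc* by 0.92 ± 0.28 (adjusted p = 0.213). The inflammasome adaptor gene *Pycard* had overlapping groups and differed by -0.04 ± 0.19. *Myd88*, the adaptor gene of these receptors, differed by 0.51 ± 0.10 (adjusted p = 0.0785), and *Card14*, which encodes a scaffold of NF-kB activation in keratinocytes, by -0.50 ± 0.12 (adjusted p = 0.124). *Peli1* and *Tab2* of the adaptor list differed by -0.43 ± 0.14 and -0.34 ± 0.12 (SE, log2; limma adjusted p = 0.231 and 0.279). In mutants 15 of the 38 adaptor genes were higher and 23 lower, and 22 of the 40 processing genes were higher and 18 lower.

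Among genes listed as induced by IL-1 or IL-36, the stress keratin genes *Krt6a* and *Krt6b* differed by 3.30 ± 0.76 and 3.27 ± 0.85 (SE, log2; limma adjusted p = 0.113 and 0.153). *S100a8*, which encodes a subunit of calprotectin and is also among the neutrophil markers, read 4.70, 4.85 and 4.79 in controls. In mutants it read 10.01, 6.08 and 5.8, so that mutant 1 stood far above the other mutants. That array, the male mutant, also had the lowest *Il1f5* and *Il1f6*, and 36.9% of all genes were lowest on it among the mutants. A link between these values was not tested. The cytokine genes *Tnf* and *Il6* lay under the dim limit in both groups, with differences of 0.23 ± 0.14 and 0.02 ± 0.09, and the chemokine gene *Cxcl1* differed by -0.03 ± 0.15.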
